A study of Mus musculus with 19 samples.

Results

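The genes described here were 31 piRNA pathway and germ granule genes of the mouse, out of 21774 protein-coding genes with an annotated start site on GRCm38, the assembly also called mm10. They were chosen as a gene list by function and not by a cut on any measured value, but earlier results of these data were known. The list holds 3 PIWI proteins, 9 Tudor-domain proteins and 11 proteins of piRNA processing or PIWI partners. It also holds 4 RNA-binding and bridge proteins of the germ granule, and 4 nuclear regulators and effectors. What was measured is where SOX3, an SRY-related HMG-box transcription factor made by undifferentiated spermatogonia, was found on chromatin at their promoters. A gene was called bound in a replicate when a peak of that replicate lay within 2 kb of one of its start sites, and where several did, the peak with the highest q score was used.

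The series holds 19 samples of chromatin immunoprecipitation experiments, inputs among them, from mouse testis at postnatal day 7 (P7) and from THY1+ undifferentiated spermatogonia (uSPG) at P7. The values came from the 2 SOX3 ChIP-seq replicates of P7 testis, each with its own peak list, and the 2 SOX3 ChIP-nexus replicates of P7 testis were used beside them. The labels name 2 SOX3 antibodies together for each of these samples (SCBT and EMD Milipore) and give no genotype, strain or treatment for them, and the study's methods describe seminiferous tubules of several mice per ChIP experiment. Samples of inputs, of ZBTB16 and SALL4 and of histone marks were not analysed here. A testis at P7 holds spermatogonia together with Sertoli and other somatic cells, so a peak belongs to the tissue and not to a sorted cell. The peak lists hold no expression values, so neither the cell types nor the level of any transcript could be checked.

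Piwi-interacting RNAs (piRNAs) are small RNAs of the germ line that guide PIWI proteins, a branch of the Argonaute family, to transposon transcripts. Long precursors are cut on the outer mitochondrial membrane, loaded into PIWI proteins, trimmed and methylated at the 3′ end. The loaded proteins cut transposon RNA in the cytoplasm and direct DNA methylation of transposons in the nucleus of fetal germ cells. Much of this takes place in germ granules, which gather around mitochondria (intermitochondrial cement) and later form the chromatoid body of spermatids, and Tudor domains hold the granules together by binding methylated arginines of PIWI proteins. Many of these genes have CpG-dense promoters.

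At the authors' threshold, SOX3 peaks lay at the promoters of nearly all of these genes in replicate 1 and of most of them in replicate 2. In replicate 1, 29 of the 31 genes were bound (93.5%), and in replicate 2, 24 were (77.4%). All 24 genes bound in replicate 2 were also bound in replicate 1. Among all protein-coding genes, 66.0% were bound in replicate 1, 58.4% in replicate 2 and 56.3% in both. Over the 2 replicates the share bound was 85.5% ± 11.4 (SD, n = 2) for the 31 genes and 62.2% ± 5.39 (SD, n = 2) for all protein-coding genes. Counting only peaks with a q score above 60 left 24 genes (77.4%) in replicate 1 and 14 (45.2%) in replicate 2, beside 65.5% and 42.8% of genes with a like promoter CpG ratio, a measure explained with the CpG comparison. Tex14, Tdrd7, Exd1 and Prmt5 had the highest-ranked peaks, Piwil1, Tdrd6, Rnf17, Asz1 and Gtsf1 had a peak in replicate 1 only, and Piwil4 and Morc1 had none. With 2 peak lists no test between the genes and the genome was made. The study describes the replicates as biological ones.

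The sequences just upstream of the start site are printed for the 3 genes with the highest mean q score rank and for the 2 genes without a peak, because promoters rich in the dinucleotide CG were the ones most often occupied in these lists. For the 3 bound genes the start site nearest the strongest replicate 1 peak was used, for the other 2 the most 5′ one, and the run ends where it meets an exon of any gene, which shortens Exd1 to 79 bases. Capitals mark CG and all runs are read 5′ to 3′ on the strand of the gene (RefSeq, GRCm38).
Tex14, chr11:87427341-87427590, plus strand: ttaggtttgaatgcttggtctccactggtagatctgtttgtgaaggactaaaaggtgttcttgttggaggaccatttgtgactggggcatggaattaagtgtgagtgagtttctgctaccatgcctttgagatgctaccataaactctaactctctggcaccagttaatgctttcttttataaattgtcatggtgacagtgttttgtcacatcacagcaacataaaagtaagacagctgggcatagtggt
Tdrd7, chr4:45972047-45972296, plus strand: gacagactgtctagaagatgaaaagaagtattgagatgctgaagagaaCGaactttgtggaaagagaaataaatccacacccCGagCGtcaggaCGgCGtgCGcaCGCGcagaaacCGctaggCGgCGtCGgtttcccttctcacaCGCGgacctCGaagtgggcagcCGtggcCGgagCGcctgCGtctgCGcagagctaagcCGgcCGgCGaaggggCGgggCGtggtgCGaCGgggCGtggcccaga
Exd1, chr2:119547628-119547706, minus strand: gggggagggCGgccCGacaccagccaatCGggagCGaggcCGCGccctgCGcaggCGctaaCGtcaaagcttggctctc
Morc1, chr16:48430987-48431236, plus strand: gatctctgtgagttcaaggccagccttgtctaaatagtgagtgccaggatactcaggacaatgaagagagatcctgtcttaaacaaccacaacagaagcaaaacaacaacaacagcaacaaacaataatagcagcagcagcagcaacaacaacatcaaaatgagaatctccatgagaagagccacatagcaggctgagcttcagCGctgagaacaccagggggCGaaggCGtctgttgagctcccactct
Piwil4, chr9:14740673-14740922, minus strand: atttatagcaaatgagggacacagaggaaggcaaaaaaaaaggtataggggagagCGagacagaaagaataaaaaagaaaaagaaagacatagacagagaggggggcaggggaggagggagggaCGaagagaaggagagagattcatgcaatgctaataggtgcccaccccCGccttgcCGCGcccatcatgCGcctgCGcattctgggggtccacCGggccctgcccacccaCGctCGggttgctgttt
Tdrd7 had 28 CG dinucleotides in these 250 bases, Piwil4 had 10, Morc1 had 3 and Tex14 had 0. The 79 bases of Exd1 held 9. The Tex14 run lies before an internal start site, whose peak is described with the germ granule genes.

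A second set is shown because it holds, of the 5 short words searched, the one whose share differed most from that of all promoters. The window was 250 bases before and 50 after the most 5′ start site, 300 bases in all. CACGTG, the E-box read by basic helix-loop-helix proteins such as MYC, MAX and MGA and identical on both strands, was found in 13 of the 31 promoters (41.9%). It was found in 7.86% of all protein-coding promoters, in 10.6% of those bound in both replicates, and on average in 9.07% of genes with a CpG ratio within 0.05 of each of the 31. Each site is shown with 12 bases on either side, 30 in all, with the CACGTG in capitals, read 5′ to 3′ on the strand of the gene. These sequences were chosen after the counts were seen, and the counts were not tested.
Piwil1, chr5:128736055-128736084, plus strand: aaaaccgccaccCACGTGgcagccaatcag
Piwil1, chr5:128736080-128736109, plus strand: atcagggcccagCACGTGtccacctcgccg
Tdrd1, chr19:56826186-56826215, plus strand: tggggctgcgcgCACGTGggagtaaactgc
Tdrd9, chr12:111971382-111971411, plus strand: ggtctccataaaCACGTGcctgtccaggtc
Tdrd9, chr12:111971452-111971481, plus strand: gcacgaggctccCACGTGcatgcagggcct
Rnf17, chr14:56402655-56402684, plus strand: tgctgggacttgCACGTGctgctgcccctc
Stk31, chr6:49395472-49395501, plus strand: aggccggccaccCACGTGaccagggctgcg
Pld6, chr11:59787673-59787702, minus strand: ggggcgggctggCACGTGttgggcgcgcaa
Mov10l1, chr15:88982736-88982765, plus strand: tccatgctccttCACGTGctaaccgccaac
Pnldc1, chr17:12909979-12910008, minus strand: gccttggtgtgaCACGTGcacgagctttaa
Fkbp6, chr5:135350128-135350157, minus strand: tgcgcctgccatCACGTGtgcagcgcgtgc
Fkbp6, chr5:135350064-135350093, minus strand: gcgtctatcgatCACGTGccgtttctctcg
Mael, chr1:166238950-166238979, minus strand: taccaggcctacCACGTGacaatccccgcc
Ddx4, chr13:112652322-112652351, minus strand: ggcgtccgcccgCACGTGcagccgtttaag
Ddx25, chr9:35558416-35558445, minus strand: cgggggtggcagCACGTGccaggggcgaga
Spocd1, chr4:129928713-129928742, plus strand: tcttctccgcatCACGTGcttcttccctca
Within the window searched, the first bases of the sites lay between -246 and 38, with a median of -48.5 (the start site is 1 and the base before it is -1). All 16 sites lay inside a replicate 1 promoter peak of their gene and 11 lay inside a replicate 2 peak. The window searched lies at a start site, and all 29 genes bound in replicate 1 had a peak over a start site. Most words in that window would therefore fall inside a peak, so the overlap does not single out CACGTG. Of the 13 genes that carry the word, 13 were bound in replicate 1 and 11 in replicate 2, beside 16 and 13 of the 18 without it, and the difference was not tested. Of the 1712 protein-coding genes with CACGTG, 84.2% were bound in replicate 1 and 78.0% in replicate 2.

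The words that SOX proteins are known to read were found in few of the 31 promoters, and their counts were not tested. Both had lower shares than in all promoters, but the share of AACAAT was above that of promoters bound in both replicates. No share at equal CpG ratio is given for these words. Both strands were searched, and none of the 5 words contains another. AACAAT was found in 2 of the 31 promoters (6.45%, Asz1 and Morc1) and in 9.44% of all protein-coding promoters, or 5.35% of those bound in both replicates. ACAAAG was found in 3 (9.68%, Pnldc1, Fkbp6 and Ddx4) and in 16.7% of all, or 12.9% of those bound in both. TCCCGC, a word read by E2F proteins, was found in 11 (35.5%) beside 25.9% of all promoters and 38.2% of those bound in both replicates. CAGTTG, a word read by MYB proteins, was found in 5 (16.1%) beside 12.2% of all and 9.66% of those bound in both. A word absent from these 300 bases may lie elsewhere in a peak.

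Each peak carries a pair of values. The q score is −10log10 of the false discovery rate of the peak as the authors' caller gave it, so 30 means a rate of 0.001, and the log2 ratio compares the ChIP with its input. The median q score of the strongest promoter peak over the bound genes of the list was 134 in replicate 1 (lowest 35.7, highest 1999, n = 29 genes) and 62.4 in replicate 2 (lowest 31.2, highest 1440, n = 24 genes). Bound protein-coding genes had medians of 171 and 80.1. The genes of the list thus sat below the middle of the bound genes by q score: their median percentile among bound protein-coding genes was 39.7 in replicate 1 and 35.8 in replicate 2, and 7 genes were above the 50th percentile in each replicate. By log2 ratio they sat at the middle, with medians of 3.69 and 2.70 beside 3.70 and 2.71 for all bound genes. Their peaks were also narrower, with median widths of 1346 and 1027.5 bp beside 1649 and 1334 bp.

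**Figure D1:**
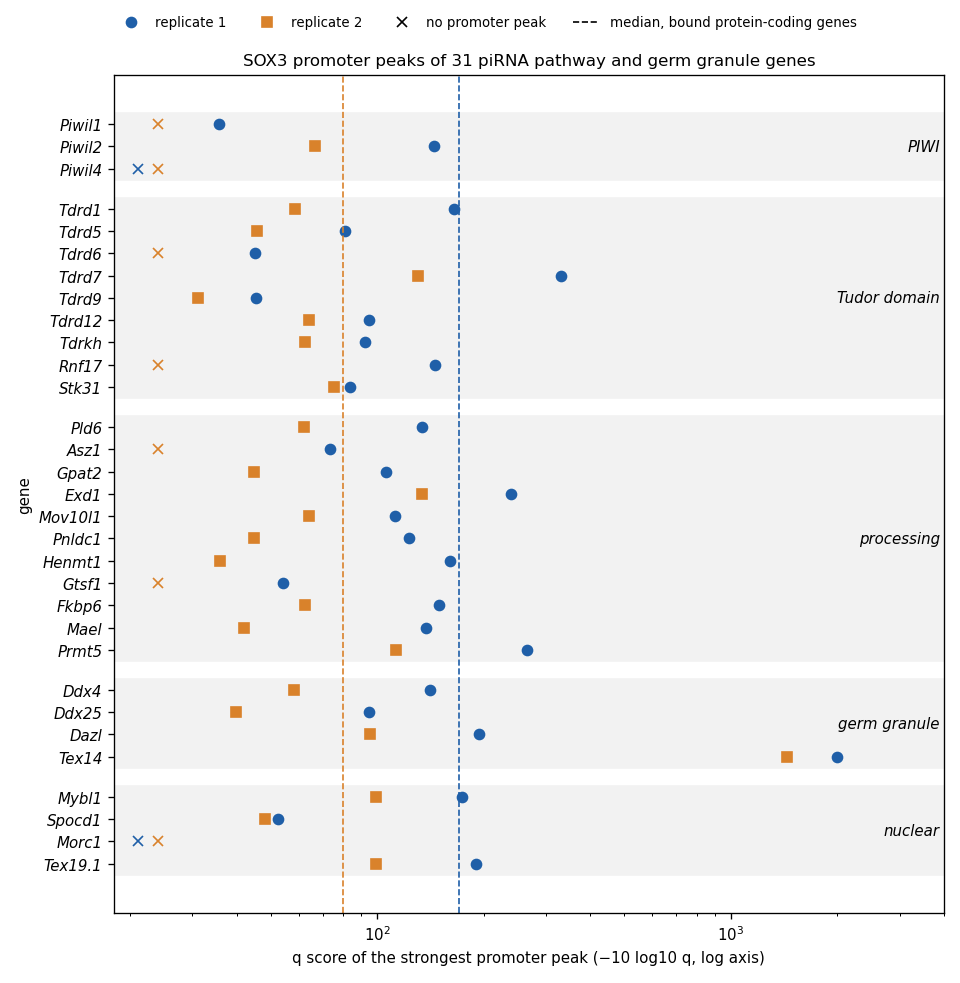
q score (−10 log10 q, log axis) of the strongest SOX3 promoter peak of each of the 31 genes, grouped by role, in replicate 1 (blue circles) and replicate 2 (orange squares). Dashed lines are the medians of all bound protein-coding genes (171 and 80.1) and crosses at the left mark genes with no promoter peak. Tex14 stands apart at 1999 and 1440, and most other genes lie to the left of the line of their replicate.

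Of the 3 PIWI proteins, which carry the piRNAs, 2 (66.7%) were bound in replicate 1 and 1 (33.3%) in replicate 2. Among all protein-coding genes 66.0% and 58.4% were bound, so the replicate 1 share was near that of the genome. These shares were the lowest of any role group, but they rest on 3 genes. Piwil2 (MILI), the PIWI protein present from fetal germ cells to round spermatids, had a peak at chr14:70428474-70429785 with a q score of 144 and a log2 ratio of 3.60 in replicate 1, and at chr14:70428670-70429668 with 66.4 and 2.70 in replicate 2. Both peaks covered the downstream of its annotated start sites (70429108, CpG ratio 0.439), which lies in an intron of the longer transcript, and no peak covered the most 5′ site (70436898, CpG ratio 0.229). The replicate 1 peak also covered the start of Gm24890, an snRNA gene 511 bp from that start site. A weaker replicate 1 peak (q score 40.2) lay 857 bp from the most 5′ site.

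Piwil1 (MIWI), the PIWI protein of pachytene spermatocytes and spermatids, had the lowest q score of the list in replicate 1. Its replicate 1 peak, at chr5:128735837-128736676 over the start site, had a q score of 35.7 and a log2 ratio of 2.72, and it had no promoter peak in replicate 2, where the nearest peak lay 16427 bp away. Among protein-coding genes whose replicate 1 q score was within 10% of that of Piwil1, 32.5% were bound in replicate 2. Piwil4 (MIWI2), the nuclear PIWI protein of fetal gonocytes, was not bound. The nearest peaks to its start sites lay 6529 bp away in replicate 1 (chr9:14747201-14747700, q score 34.1) and 10491 bp away in replicate 2 (chr9:14751163-14751743, q score 45.1). Its CpG ratio of 0.365 was the lowest of the 31 genes, and among genes with a CpG ratio within 0.05 of it 45.3% were bound in replicate 1 and 31.8% in replicate 2.

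The Tudor-domain proteins, scaffolds that bind PIWI proteins, were bound in 9 of 9 genes in replicate 1 and 7 of 9 in replicate 2. These are 100% and 77.8%, beside 66.0% and 58.4% of all protein-coding genes. Tdrd7, needed for the chromatoid body, had the strongest peaks of the group. They lay at chr4:45971813-45973197 in replicate 1 (q score 331, log2 ratio 4.14) and at chr4:45971951-45973046 in replicate 2 (q score 131, log2 ratio 3.35), over the CpG-rich start site whose upstream bases are printed above (CpG ratio 0.988). The most 5′ start site of the gene, with a CpG ratio of 0.250, was covered by a peak in replicate 2 only (q score 40.0). Tdrd9, a helicase that acts with MIWI2, had the weakest peaks bound in both replicates: chr12:111971273-111971835 with a q score of 45.5 and a log2 ratio of 2.96, and chr12:111971249-111971754 with 31.2 and 1.93. Both Tdrd9 peaks held its 2 CACGTG sites.

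Tdrd1, the founding germ granule Tudor protein, had q scores of 164 and 58.5, and Tdrd12, a cofactor of secondary piRNA production, had 94.5 and 64.0. Tdrd5, required for pachytene piRNA precursors, had 80.8 and 45.6 in spite of a CpG ratio of 0.907, the second highest of the list. Tdrkh (Tdrd2), the mitochondrial partner of the trimmer, had 92.6 and 62.4, over a start site 289 bp from that of the lncRNA gene 1700040D17Rik on the other strand. Stk31 (Tdrd8), a Tudor protein with a kinase-like domain, had 83.9 and 75.5, which made it 1 of the genes with the closest scores in the replicates. Apart from Tdrd7, the group lay below the median of all bound genes in each replicate.

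The other 2 Tudor genes were bound in replicate 1 only. Tdrd6, a chromatoid body protein, had a peak at chr17:43629438-43630492 with a q score of 45.0 and a log2 ratio of 2.34, the lowest of the list in replicate 1, and its nearest replicate 2 peak lay 36301 bp away. Rnf17 (Tdrd4), a RING-finger Tudor protein of spermatocytes and spermatids, had the highest score of the 5 genes bound in replicate 1 only, at chr14:56402066-56403204 with a q score of 145 and a log2 ratio of 3.97. Of the 1091 protein-coding genes with a replicate 1 q score within 10% of that value, 96.1% had a promoter peak in replicate 2, whereas the nearest replicate 2 peak to Rnf17 lay 123955 bp away. For Tdrd6 the matching share was 43.7%.

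All 11 genes of piRNA processing and PIWI partners were bound in replicate 1 and 9 (81.8%) were in replicate 2, beside 66.0% and 58.4% of all protein-coding genes. Exd1, a partner of TDRD12 in the PIWI-EXD1-Tudor complex, had the highest rank of the group. Its peaks lay at chr2:119546765-119548495 (q score 239, log2 ratio 4.56) and chr2:119546670-119548046 (q score 134, log2 ratio 2.76). Both peaks also covered the start of Chp1, a calcium-binding protein gene that runs the other way from 80 bp upstream, so the peak cannot be assigned to 1 of the pair. Prmt5, the arginine methyltransferase that makes the marks Tudor domains bind and that acts in all cells, came next with 264 and 113 (log2 ratio 3.78 and 2.61).

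The mitochondrial and nuclease genes ranked below the middle of bound genes in both replicates. Pld6 (MITOPLD, Zucchini), the endonuclease of piRNA biogenesis, had q scores of 134 and 61.9, and the helicase gene Mov10l1, which feeds it precursors, had 113 and 64.0. Pnldc1, the 3′ trimmer, had 123 and 44.7, and Henmt1, the methyltransferase of the 3′ end, had 160 and 36.0. The ratio of 4.46 between the replicates of Henmt1 was the highest of the list, beside a median ratio of 2.09 over the 24 genes bound in both and 2.30 over all protein-coding genes bound in both. Gpat2, a mitochondrial protein that binds PIWIL2, had the lowest rank of the group among genes bound in both replicates. Its peaks lay at chr2:127424357-127427620 (q score 106, log2 ratio 3.86, and at 3264 bp the widest of the list) and at chr2:127424736-127425550 (q score 44.7, log2 ratio 2.61).

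Mael, a germ granule protein that binds piRNA precursors, had 137 and 41.9. Fkbp6, a co-chaperone of PIWI loading, had 149 and 62.4, but those peaks did not lie on the curated start sites used here. They lay 1275 and 1499 bp upstream of the nearest one, and both covered the 5′ end of the whole gene record (135351809). The record of Trim50, on the other strand, also begins inside both peaks (135351884), and the replicate 2 peak covered a curated start site of Trim50. The peaks over the curated Fkbp6 start sites had q scores of 116 and 47.1 (log2 ratio 3.24 and 2.23), and these are the ones that hold its 2 CACGTG sites. Asz1 (GASZ), a mitochondrial anchor of the granule, was bound in replicate 1 only, at chr6:18108554-18109404 with a q score of 73.5 and a log2 ratio of 3.76. Gtsf1, a zinc-finger partner of PIWI proteins, was also bound in replicate 1 only, at chr15:103430038-103430883 with 54.2 and 2.76, the lowest q score of the group. Their nearest replicate 2 peaks lay 76514 and 15280 bp away, and of the genes with replicate 1 scores within 10% of theirs 71.1% and 56.9% were bound in replicate 2.

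**Figure D2:**
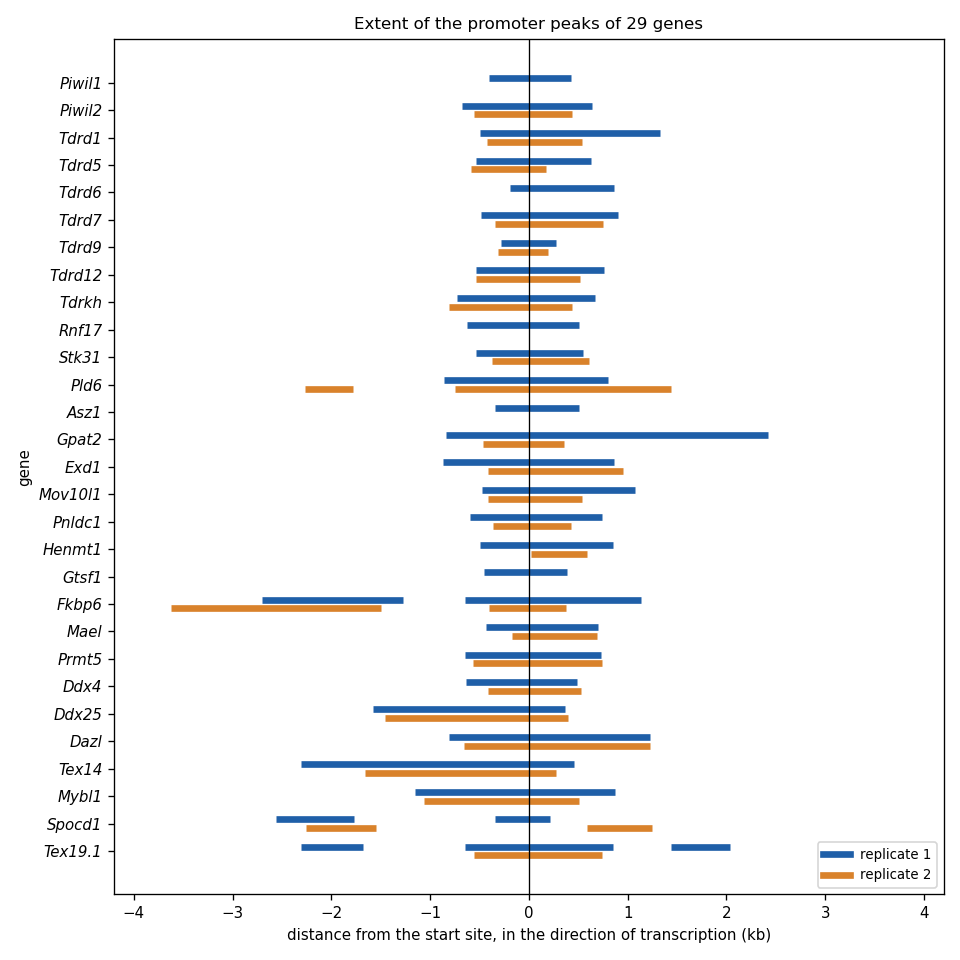
Extent of every promoter peak of the 29 genes with a replicate 1 peak, as distance (kb) from the start site nearest the strongest replicate 1 peak, positive in the direction of transcription, with replicate 1 in blue and replicate 2 in orange. Most bars span 0, those of Fkbp6 and Spocd1 include peaks that start away from it, and the peaks at the 5′ start sites of Tex14 and Tdrd7 and the upstream peak of Piwil2 lie outside the plotted range of 4.2 kb.

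The peaks sat on the start sites. In replicate 1 all 29 bound genes had a peak that covered a start site and in replicate 2, 23 of 24 did, beside 91.0% and 88.7% of bound protein-coding genes. In each of the 24 genes bound in both replicates some promoter peak of replicate 1 overlapped one of replicate 2, which was so in 97.6% of protein-coding genes bound in both. The strongest peaks overlapped in 23 of 24.

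The 4 germ granule RNA-binding and bridge proteins were bound in both replicates, as were 56.3% of all protein-coding genes. Ddx4 (VASA, MVH), the RNA helicase that defines germ cells, had q scores of 141 and 58.2. Dazl, the RNA-binding protein that licenses germ cells for gametogenesis, had 194 and 95.6. Ddx25 (GRTH), a testis RNA helicase, had the lowest values, at chr9:35558106-35560044 (q score 94.7, log2 ratio 2.82) and at chr9:35558079-35559928 (q score 39.7, log2 ratio 1.97), and both peaks covered the start of Pus3, a pseudouridine synthase gene 90 bp away on the other strand. Dazl was above the median of bound genes in both replicates and Ddx4 and Ddx25 were below it in both.

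Tex14, which is required for stable intercellular bridges between germ cells, had the strongest peaks of the list, but they were not at its main promoter. They lay at chr11:87425288-87428045 (q score 1999, log2 ratio 6.71) and chr11:87425934-87427867 (q score 1440, log2 ratio 5.36), and ranked 7 and 3 among all 58351 and 38832 peaks of the lists. They covered an internal start site (87427591, CpG ratio 0.148) and the snRNA gene Gm22068 at chr11:87426716-87426879. The 5′ start site of Tex14 (87405065, CpG ratio 0.679) had peaks of its own, at chr11:87403537-87406379 with a q score of 408 and a log2 ratio of 4.82 and at chr11:87403491-87406158 with 169 and 4.13. Those peaks also covered the start of Rad51c, a homologous recombination gene 111 bp away on the other strand. By the rule used here Tex14 was therefore bound in both replicates with or without the snRNA locus. The peaks at the 5′ start site cannot be assigned to 1 of the pair Tex14 and Rad51c.

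The rest of Tex14 repeated that arrangement. RefSeq places 7 genes that it labels snRNA within its 150811 bp, and snRNA gene is used here only for that label. They are Rnu1a1 (a U1 gene), Gm22068, Gm23137 and the U3 genes Rnu3b1, Rnu3b2, Rnu3b3 and Rnu3b4. Of the 21 replicate 1 peaks inside Tex14, 5 overlapped an snRNA gene, with q scores from 740 to 1999, and the other 16 had q scores from 30.6 to 408 with a median of 46.5. Of the 15 replicate 2 peaks, 6 overlapped an snRNA gene (518 to 1440) and 9 did not (31.4 to 169, median 43.8). The strongest peak off an snRNA gene was in both replicates the one at the 5′ start site. U1 and U3 are multicopy families, and the study's ChIP-seq alignment placed reads that fit several sites at one of them at random, so the share of each copy is uncertain.

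**Figure D3:**
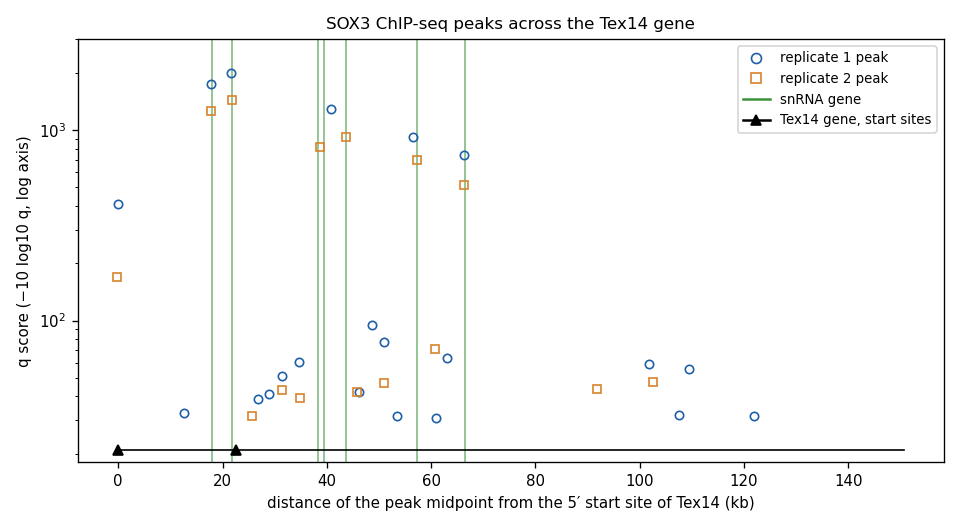
q score (−10 log10 q, log axis) of each SOX3 ChIP-seq peak inside Tex14 against the distance of its midpoint from the 5′ start site (kb), for replicate 1 (blue circles) and replicate 2 (orange squares). Green lines mark the 7 snRNA genes and black triangles the start sites on the gene (black line). The peaks with q scores of 518 and above stand on or beside the green lines, and the peak at 0 kb has scores of 408 and 169.

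The nuclear regulators and effectors were bound in 3 of 4 genes (75%) in both replicates, beside 56.3% of all protein-coding genes. Mybl1 (A-MYB), the transcription factor that switches on the pachytene piRNA genes, had a q score of 173 in replicate 1 and 99.0 in replicate 2 (log2 ratio 3.80 and 2.96). Tex19.1, a germline transposon-control protein, had the highest rank of the group, at chr11:121145501-121146993 (q score 190, log2 ratio 4.29) and chr11:121145585-121146878 (q score 99.0, log2 ratio 3.55), with 2 weaker peaks in replicate 1. Its CpG ratio was 0.444, and among bound genes of equal CpG ratio its q score stood at percentile 91.1 in replicate 1 and 92.3 in replicate 2.

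Spocd1, a partner of MIWI2 in transposon methylation, had the lowest rank of the group, and RefSeq holds only a predicted transcript for it. Its strongest peaks did not overlap: chr4:129926204-129926996 in replicate 1 (q score 52.2, log2 ratio 3.10), 1771 bp from the start site, and chr4:129929352-129930013 in replicate 2 (q score 48.3, log2 ratio 3.34), 585 bp from it and in an exon. A second replicate 1 peak over the start site had a q score of 40.2, and a second replicate 2 peak 1543 bp away had 38.3. Morc1, a GHKL ATPase needed for transposon methylation in male germ cells, was the gene farthest from any peak. The nearest replicate 1 peak lay 192695 bp away (chr16:48237987-48238542, with a q score at the lower end of that list) and the nearest replicate 2 peak 562109 bp away (chr16:48993346-48994784, q score 152). Of genes with a CpG ratio within 0.05 of its 0.417, 56.6% were bound in replicate 1 and 41.6% in replicate 2.

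Promoter CpG content was used to match genes, because the share of protein-coding genes bound was higher where it was higher. The CpG ratio is the number of CG dinucleotides over that expected from the C and G content in 500 bp either side of a start site, with the highest value taken where a gene has several. In replicate 1 the share bound was 11.4% of the 4404 protein-coding genes with a ratio below 0.2, 63.4% of those between 0.4 and 0.5, and 99.0% of those between 0.9 and 1. The median ratio of the 31 genes was 0.665 (lowest 0.365, highest 0.988) and that of all protein-coding genes was 0.600. Genes within 0.05 of the ratio of each of the 31, between 1112 and 3317 genes for each, were bound on average in 81.7% of cases in replicate 1, 71.1% in replicate 2 and 68.6% in both. For 31 genes those shares correspond to 25.3, 22.0 and 21.3 genes, and 29, 24 and 24 were counted. The distance of the list from equal-CpG genes (93.5% against 81.7%, and 77.4% against 71.1%) was thus smaller than its distance from all protein-coding genes. Means over the 2 replicates were 85.5% ± 11.4 and 76.4% ± 7.49 (SD, n = 2), and the list had the higher share in each replicate. Both shares came from the same 2 peak lists, so these SDs hold the difference between the lists. They do not measure the spread of the difference between the list and equal-CpG genes, which was not tested.

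The difference in counts from equal-CpG genes was greater among the genes with sparse CpG. Of the 10 genes with a ratio below 0.5 (Piwil1, Piwil2, Piwil4, Tdrd9, Tdrd12, Gpat2, Gtsf1, Spocd1, Morc1 and Tex19.1), 8 were bound in replicate 1 and 6 in replicate 2, where equal-CpG shares of 57.2% and 42.1% correspond to 5.72 genes in replicate 1 and 4.21 in replicate 2. Of the 21 genes at 0.5 or above, 21 were bound in replicate 1 and 18 in replicate 2, beside 19.6 and 17.8 from the equal-CpG shares. The replicate 1 count was the highest possible and the equal-CpG share there was 93.3%, so a large difference could not appear in that class. The contrast between the classes in replicate 1 is limited by this ceiling. Tdrd6 was bound in replicate 1 only in spite of a high ratio: 89.0% of genes with a ratio near its 0.743 were bound in replicate 2. Both unbound genes, Piwil4 and Morc1, belonged to the CpG-poor class.

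**Figure D4:**
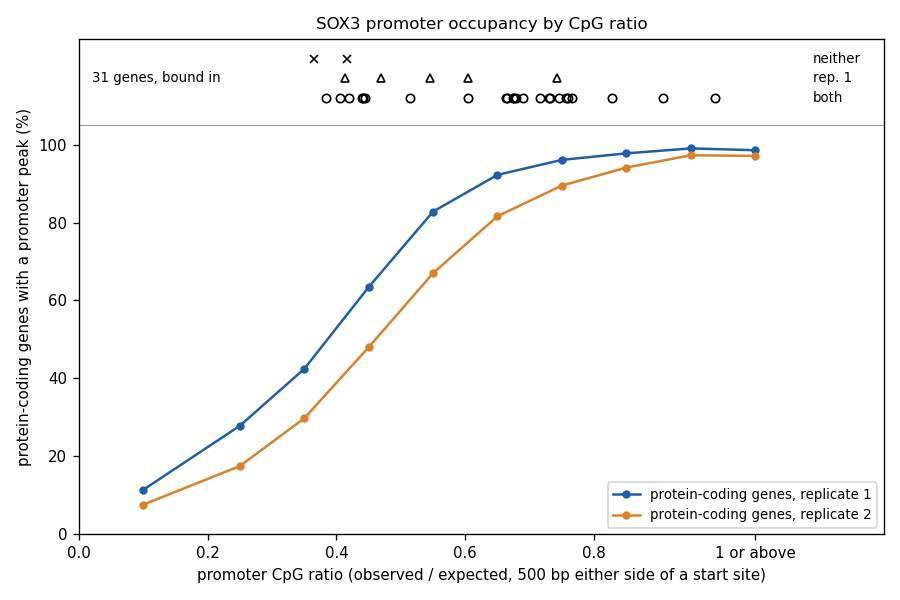
Share of protein-coding genes with a SOX3 promoter peak (%) by promoter CpG ratio, in bins of 0.1 between 0.2 and 1, with 1 bin below and 1 above, for replicate 1 (blue) and replicate 2 (orange). The marks above the line place the 31 genes by CpG ratio according to whether they were bound in both replicates, in replicate 1 only or in neither, and both unbound genes and 2 of the 5 bound in replicate 1 only lie below 0.5, where the curves are steep.

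Matching on CpG ratio also moved the ranks. Set against bound genes of equal CpG ratio, the median q score percentile of the 31 genes was 41.4 in replicate 1 and 48.2 in replicate 2, with 12 genes above the 50th percentile in each, and the median log2 ratio percentile was 59.3 and 57.4. Of the bound genes with a ratio below 0.5, 4 of 8 were above the 50th percentile in replicate 1 (median 56.0) and 5 of 6 in replicate 2 (median 66.6). In replicate 1 Tex19.1 was the highest of them and Piwil1 the lowest. Of those at 0.5 or above, 8 of 21 were above it in replicate 1 (median 41.1) and 7 of 18 in replicate 2 (median 39.8), and in replicate 1 Tex14 was the highest of them and Tdrd6 the lowest. Tex14 was matched by the ratio of its 5′ start site (0.679), whereas its strongest peak lay at the internal start site (0.148). Across genes, the CpG ratio and the q score had a Spearman correlation of 0.591 over 14370 bound protein-coding genes and 0.318 over the 29 bound genes of the list in replicate 1, and of 0.502 and 0.124 in replicate 2. These are correlations across genes of 1 library, which are not independent replicates.

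The 2 lists ranked the genes alike in part. The q score in replicate 1 was the higher in all 24 genes bound in both, and the log2 ratio in 22 of 24. The Spearman correlation of q scores between replicates was 0.661 over these 24 genes and 0.837 over 12261 protein-coding genes, and that of log2 ratios was 0.525 and 0.333. Most values recur: 98.7% of the replicate 1 peaks and 98.6% of the replicate 2 peaks share their q score and log2 ratio with another peak of the list. Highest and lowest ranks within a group give the order of the values, some of them set by small gaps. Such gaps are not evidence of a difference between genes. Gpat2 and Pnldc1, for example, had the same replicate 2 values (q score 44.7, log2 ratio 2.61).

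**Figure D5:**
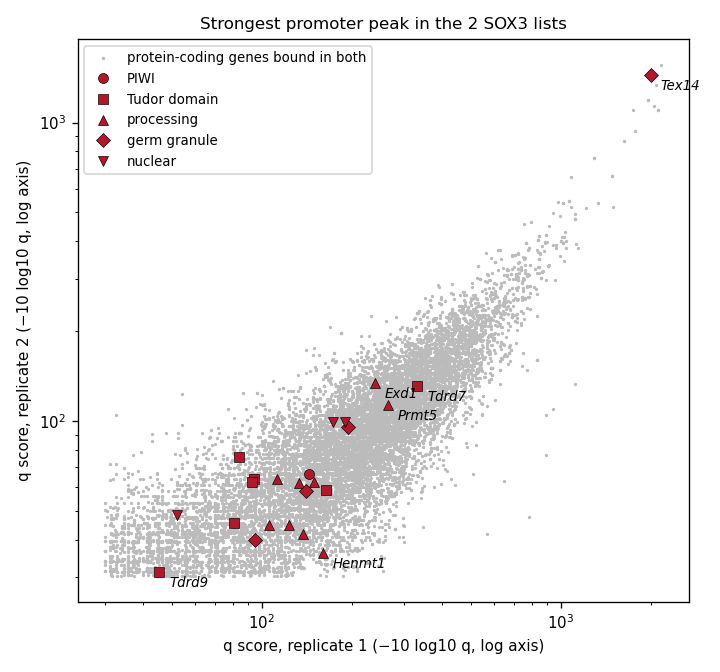
q score of the strongest promoter peak in replicate 1 against replicate 2 (−10 log10 q, log axes) for 12261 protein-coding genes bound in both (grey) and the 24 genes of the list bound in both (red, marked by role). The red points lie within the grey cloud, most of them in its lower part, with Tex14 at its upper end and Henmt1 at its lower edge.

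Beyond the promoters, 13 of the 31 genes (41.9%) had a replicate 1 peak elsewhere in the gene and 12 (38.7%) a replicate 2 peak, beside 41.1% and 32.6% of protein-coding genes. The genes of the list are longer, with a median of 38897 bp against 17219 bp. ChIP-nexus, in which an exonuclease trims the DNA up to the bound protein, gave short lists of 111 and 19 peaks. Only Tex14 of the 31 genes had a ChIP-nexus promoter peak, in replicate 1, where 0.175% of protein-coding genes had one. By the read numbers the study gives, both SOX3 ChIP-nexus libraries had far fewer unique reads than the SOX3 ChIP-seq ones. A promoter without a ChIP-nexus peak can therefore not be read as unoccupied.

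A second list of 22 pathway genes was set beside the first, of which Tdrd15 and Dnmt3c were not analysed here and 20 were measured. Of the 20, 18 were bound in replicate 1 (90%) and 13 in replicate 2 (65%), and all 13 were bound in both, beside 66.0%, 58.4% and 56.3% of all protein-coding genes. The q scores of the 13 ran from 35.7 to 785 in replicate 1 and from 33.9 to 309 in replicate 2, with the chaperone gene Hsp90aa1 highest in both. Btbd18, Tex19.2, Nanos3, Meioc and Adad2 were bound in replicate 1 only, with q scores from 42.1 for Nanos3 to 120 for Tex19.2. Tex15, an effector of piRNA-directed methylation with a CpG ratio of 0.0314, and Nanos2, the RNA-binding protein of fetal male germ cells, with 0.202, had no promoter peak. Dnmt3l, the cofactor of fetal germline methylation, was bound in both replicates with scores of 35.7 and 37.7.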

How the data were processed

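Peaks of 2 SOX3 ChIP-seq and 2 SOX3 ChIP-nexus samples of P7 testis were used, each replicate on its own. Per the study's methods, reads were aligned to mm10 with Novoalign, ambiguous reads being placed at random, and Picard removed the duplicates. The authors called ChIP-seq peaks against input with USeq and kept those with a score (−10log10 q) above 30; the deposited lists carry that score and a log2 ratio. These lists have no header, so the column meanings were inferred from their layout and values (lowest q scores 30.0003 and 30.0289). The deposited ChIP-nexus lists hold the fold enrichment and −log10 q from MACS2 2.1.1. The methods name a blacklist filter, but not whether the deposited per-replicate lists had passed it. The lists hold no read counts, so no interval was computed. By the read numbers the study gives, replicate 2 had more unique reads than replicate 1, although its list is the shorter.

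Start sites were those of RefSeq curated transcripts on GRCm38, or predicted ones for a gene with no curated transcript (Spocd1 among the 31). Promoters of 2 kb either side were intersected with peaks in Python 3.11.15 with numpy 2.4.6. The assignment was tested on simulated data and gave the same genes as bedtools 2.31.1. CpG ratios used 500 bp either side, and equal meant within 0.05. Percentiles rank a gene among bound protein-coding genes of the same list. No test was run.

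All 31 genes were named. Positions were given for the highest and lowest mean q score percentile per role (for a gene bound once, its only percentile) and for genes bound once or never, and the study's samples were grouped by their titles. The genes, the lists and the words searched were chosen with earlier results of these data known. Alternatives were the window (1 or 5 kb), a q score above 60, peak midpoints, GENCODE M21 transcripts, the most 5′ start site, the log2 ratio for ranking, a wider CpG tolerance and flank, each replicate alone and, chosen after seeing the data, curated transcripts only.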

Additional observations from a re-analysis of the deposited data

Results flagged for a closer look

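The SOX3 ChIP-nexus lists were not used to call the 31 genes bound, and in them Tex14 was the single one of the 31 with a promoter peak. It lay at chr11:87426495-87427142 in replicate 1, 449 bp from the internal start site of Tex14, with a fold enrichment of 16.3 and a −log10 q of 32.9, over the snRNA gene Gm22068. Replicate 1 held 5 more peaks inside Tex14, with fold enrichments from 21.6 to 24.1, and they overlapped the snRNA genes Rnu1a1, Rnu3b1, Rnu3b2, Rnu3b3 and Rnu3b4. Replicate 2 held none in Tex14. Both libraries had few unique reads by the study's numbers, so the lack of a peak at the other genes cannot be read as a lack of SOX3. No ChIP-nexus list of a control sample was analysed here, and reads shared between copies of these snRNA families were not tested as a source of the peaks.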

How the results depend on the processing

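Of 39 alternative values of the main results, 32 were classed as close to the value reported and 7 as moved. The 32 include the count of 29 genes bound in replicate 1 alone, beside 24 in both. The same change given as a share was classed as moved, so the tally depends on the measure. A q score above 60 left 14 genes bound in both replicates (45.2%) beside 38.4% of protein-coding genes, changed the replicate count of 13 genes, and lowered the mean share bound at equal CpG ratio to 54.2%, beside 61.3% for the list. Each replicate alone gave 77.4% to 93.5% of the 31 genes and 58.4% to 66.0% of protein-coding genes. Ranking by log2 ratio put the mean of the median percentiles at 49.6 in place of 37.7. A window of 1 or 5 kb, peak midpoints and GENCODE transcripts each left 24 genes bound in both and moved no gene. The most 5′ start site alone left 22, with Piwil2 and Tdrd7 each bound in 1 replicate, and curated transcripts alone, chosen after seeing the data, left 23 of 30. The precision is limited by 2 peak lists of unequal length without read counts per peak, and a missing replicate 2 peak means only that none passed the authors' threshold in that list.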
